A study of Mus musculus with 9 samples.

Results

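RLTR9 and RLTR17 are groups of long terminal repeats (LTRs), the short sequences that flank mouse endogenous retroviruses of the ERVK family and that often remain in the genome as solitary copies. All copies whose repeat name begins with RLTR9 or RLTR17 were taken from a table of RNA-seq counts for single repeat copies on the mm10 assembly. They were 3108 of 623916 copies, of which 896 were RLTR9 and 2212 were RLTR17 copies, and they fell under 17 of 1034 repeat names. The counts came from embryonic stem cells (ESCs), pluripotent lines grown from mouse blastocysts. All were of the C57BL/6 background, at early passage, and freed of feeder cells. There were 3 libraries of G4 Terc-/- ESCs, 3 of G1 Terc-/- ESCs and 3 of wild-type (WT) ESCs. Terc is the gene of the telomerase RNA, and its loss lets telomeres become shorter with each generation of mice. The G4 cells came from blastocysts of intercrossed generation-3 Terc-/- mice and the G1 cells from crosses of heterozygous mice, and a change in 1 line per genotype cannot be told apart from a property of that line. No source says that the 3 libraries of a group came from separate cultures, so the p-values reflect the scatter of these libraries alone, which may be technical.

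An LTR holds the signals that start and end the transcription of a provirus, and a solitary LTR can keep a working promoter or enhancer. In mouse ESCs, RLTR9 copies, RLTR9E and RLTR9D among them, and RLTR17 copies are known for binding factors of the pluripotency network such as Oct4, Sox2, Nanog and Esrrb. RLTR9 and RLTR17 copies are also known as start sites of noncoding RNAs of stem cells, some of which carry the name Platr, for pluripotency-associated transcript.

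A set of 6 copies that hold an annotated start of a noncoding RNA is shown because the sequence lets the LTR, the RNA start and the counts be read together. They were chosen after their values had been seen, since the copies that ranked first by change had no sequence in the references used here. Each is written 5′ to 3′ on the strand of the copy, on GRCm38 (mm10), from RefSeq promoters and GENCODE M21 transcripts. In the 2 RLTR9E copies the capitals mark 8 runs of at least 8 bases that both share in the same order. The Platr10 copy is shown for chr3:75655589-75655888 on the minus strand, with the RNA start at base 158 of the shown stretch. The C330004P14Rik copy is shown for chr10:15791527-15791826 on the plus strand, with the RNA start at base 251. In the 4 RLTR17 copies the capitals mark TTTTGGA and the octamer-like word ATGCNAAT. The shown stretches are chr5:73946381-73946624 on the plus strand for C78283, chr2:157597095-157597320 on the minus strand for Platr27, chr2:162390619-162390862 on the plus strand for Ptprtos and chr15:40162421-40162720 on the plus strand for Gm33301. Their RNA starts lie at base 1 for C78283 and Platr27, at base 195 for Ptprtos and at bases 161 and 187 for Gm33301.
Platr10 RLTR9E: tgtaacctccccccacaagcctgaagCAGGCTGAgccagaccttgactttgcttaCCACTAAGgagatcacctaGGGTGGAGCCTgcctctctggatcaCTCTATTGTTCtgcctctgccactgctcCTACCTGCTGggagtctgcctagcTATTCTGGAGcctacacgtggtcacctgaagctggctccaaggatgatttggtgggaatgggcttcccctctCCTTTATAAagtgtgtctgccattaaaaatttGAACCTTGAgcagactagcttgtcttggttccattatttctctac
C330004P14Rik RLTR9E: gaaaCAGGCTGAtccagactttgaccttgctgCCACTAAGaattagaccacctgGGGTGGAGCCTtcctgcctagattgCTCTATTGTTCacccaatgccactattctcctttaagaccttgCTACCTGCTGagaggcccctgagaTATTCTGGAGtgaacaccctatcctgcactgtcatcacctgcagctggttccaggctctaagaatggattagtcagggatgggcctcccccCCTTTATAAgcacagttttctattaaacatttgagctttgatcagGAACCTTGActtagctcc
C78283 RLTR17: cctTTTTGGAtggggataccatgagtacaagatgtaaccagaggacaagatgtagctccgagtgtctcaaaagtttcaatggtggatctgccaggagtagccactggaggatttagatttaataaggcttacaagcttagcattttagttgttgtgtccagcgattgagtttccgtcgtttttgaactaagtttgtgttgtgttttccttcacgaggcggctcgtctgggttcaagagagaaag
Platr27 RLTR17: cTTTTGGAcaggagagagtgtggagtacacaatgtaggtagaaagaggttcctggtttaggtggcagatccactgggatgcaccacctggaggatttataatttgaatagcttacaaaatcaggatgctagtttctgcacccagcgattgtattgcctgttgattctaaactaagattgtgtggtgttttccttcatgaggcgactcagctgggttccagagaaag
Ptprtos RLTR17: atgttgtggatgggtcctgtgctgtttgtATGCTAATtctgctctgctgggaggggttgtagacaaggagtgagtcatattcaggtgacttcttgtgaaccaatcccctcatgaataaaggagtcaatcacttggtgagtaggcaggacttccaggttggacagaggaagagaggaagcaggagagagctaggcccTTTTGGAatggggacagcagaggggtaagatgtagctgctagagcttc
Gm33301 RLTR17: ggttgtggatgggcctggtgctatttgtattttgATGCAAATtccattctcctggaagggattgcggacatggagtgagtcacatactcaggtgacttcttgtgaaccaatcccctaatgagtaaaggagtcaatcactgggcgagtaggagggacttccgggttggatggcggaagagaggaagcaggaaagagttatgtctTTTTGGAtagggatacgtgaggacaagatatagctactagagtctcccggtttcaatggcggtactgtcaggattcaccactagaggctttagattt

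Among the shared runs of the 2 RLTR9E copies are GGGTGGAGCCT and, further downstream, CCTTTATAA. In the 4 RLTR17 copies TTTTGGA lies just after an annotated start, at base 4 in C78283, base 2 in Platr27, base 197 in Ptprtos and base 204 in Gm33301. The word was picked by eye after the sequences had been read. It was searched on both strands in every LTR copy with at least 200 bases of sequence, and 10 of 19 RLTR17 copies (52.6%) held it, the 4 shown copies among them. Without those 4 it was in 6 of 15 RLTR17 copies, and it was in 471 of 5275 LTR copies of other names (8.93%). The octamer ATGCAAAT, bound by Oct4, was in 1 of 19 RLTR17 copies (5.26%) and 0 of 63 RLTR9 copies, against 2.18% of the other LTR copies. The looser word ATGCNAAT, which covers it, was in 6 of 19 RLTR17 copies (31.6%) and 2 of 63 RLTR9 copies (3.17%), against 4.51% of the other LTR copies. CATTGT, the core word of Sox factors, was in 8 of 19 RLTR17 copies (42.1%) and 3 of 63 RLTR9 copies (4.76%), against 21.0% of the others. TCAAGGTCA, the word of Esrrb, was in 3 of 63 RLTR9 copies (4.76%) and 0 of 19 RLTR17 copies, against 1.14% of the others. Of the 18 RLTR9E copies among the RLTR9 copies, 0 held it. The Klf words GGGTGTGG and GGGCGTGG were in 1 and 0 of 107 RLTR9 and RLTR17 copies with enough sequence, against 4.83% and 1.71% of the others. The searched stretches differed in length, with medians of 390 bases for RLTR17, 328 for RLTR9 and 337 for the other LTRs, and the copies with sequence were those that annotated transcripts or promoters cover.

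Library totals ran from 918879 to 1137257 counts with a median of 992072. RLTR9 and RLTR17 took 0.570 to 0.592% of the counts in G4 libraries, 0.444 to 0.478% in G1 libraries and 0.458 to 0.477% in WT libraries. Most copies were sparsely covered, with 2301 of the 3108 holding fewer than 5 counts over all 9 libraries. A single copy could be tested for 103 of them (3.31%), which held 69.0% of the counts. The table holds no genes, so Terc was not measured, and cell type markers could be followed only through repeats in their exons. Of 10 ESC marker genes measured this way, such as Nanog, 8 were higher and 1, Cdh1, was lower in G4 than in WT, and their summed level was 24849 to 28846 CPM in G4, 13844 to 14459 CPM in G1 and 9446 to 9849 CPM in WT (CPM, counts scaled to library size with TMM factors). The largest part of this sum was Tdgf1, with 14964 to 18087 CPM in G4, 6469 to 6929 CPM in G1 and 4234 to 4502 CPM in WT. The 4 measured markers of primitive endoderm, a lineage that ESC cultures can give rise to (Gata4, Sox7, Col4a2 and Pdgfra), were lower in all 3 contrasts (G4 and G1 each against WT, and G4 against G1), with sums of 105 to 128 CPM in G4, 1998 to 2127 CPM in G1 and 4527 to 4575 CPM in WT. Col1a1 and Fn1, the 2 measured of 11 feeder fibroblast markers, summed to 110 to 113 CPM in G4, 76.7 to 89.9 CPM in G1 and 38.6 to 57.6 CPM in WT. The part of these cell type differences in the LTR results was not tested, and in bulk RNA fewer cells of a type and less RNA per cell cannot be told apart.

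The first comparison asked whether LTR RNA differs between G4 Terc-/- ESCs, with the shortest telomeres, and WT ESCs. Counts of all copies of a name were summed, and 14 of the 17 names had enough counts for a test (edgeR quasi-likelihood, adjusted p from Benjamini-Hochberg over all 853 names tested, called under 0.05). In G4 against WT, 6 names rose and 1 fell, where 23.1% of all names rose and 23.4% fell. RLTR9E had the highest level of the RLTR9 names. Its summed level was 1486, 1696 and 1525 CPM in G4, 945, 863 and 885 CPM in G1, and 661, 804 and 789 CPM in WT. Every G4 library lay above every G1 library, and every G1 library above every WT library. The log2 change was 1.06 ± 0.07 (SE) in G4 against WT (edgeR adjusted p = 1.26e-10).

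RLTR17 also rose, with 911, 1099 and 1048 CPM in G4, 692, 663 and 654 CPM in G1, and 658, 664 and 615 CPM in WT. The G4 libraries stood apart while the G1 and WT libraries overlapped, and the log2 change in G4 against WT was 0.66 ± 0.07 (SE, edgeR adjusted p = 1.03e-07). RLTR9D, which has fewer copies, followed the same course. It had 254, 242 and 237 CPM in G4, 150, 176 and 147 CPM in G1, and 178, 150 and 148 CPM in WT, a log2 change of 0.63 ± 0.10 in G4 against WT (edgeR adjusted p = 4.52e-05). RLTR9B reached 63.2, 70.9 and 47.4 CPM in G4, 39.4, 38.3 and 34.2 CPM in G1, and 30.1, 41.8 and 40.2 CPM in WT, a log2 change of 0.69 ± 0.20 (edgeR adjusted p = 0.00691). The G4 levels of RLTR9B were above all others, with a narrow gap at the third library. RLTR9A was at 91.9, 101 and 104 CPM in G4, 106, 90.2 and 76.6 CPM in G1, and 80.4, 72.9 and 77.0 CPM in WT. Its log2 change of 0.37 ± 0.14 in G4 against WT passed narrowly (edgeR adjusted p = 0.0406). The call was lost under the DESeq2 Wald test, with 2 groups in the fit and when WT library 2 or 3 or G4 library 2 or 3 was left out, with log2 changes between 0.33 and 0.38.

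RLTR9A2 had the largest log2 change of the names, 2.34 ± 0.31 in G4 against WT (edgeR adjusted p = 2.53e-06), and it rested on 1 copy. The name had 69.7, 90.9 and 85.1 CPM in G4, 25.7, 8.20 and 26.5 CPM in G1, and 20.8, 6.61 and 20.1 CPM in WT, and 76.9% of its counts came from the copy at chr10:34230133-34230500 on the minus strand, within 5 kb of a gene. Without that copy the log2 change was 0.45 and was not called.

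RLTR17B_Mm was the most abundant name and the 1 that fell. It had 1922, 1941 and 1898 CPM in G4, 2560, 2416 and 2310 CPM in G1, and 2840, 2820 and 2550 CPM in WT. All G4 libraries were below all others, and the log2 change in G4 against WT was -0.51 ± 0.05 (edgeR adjusted p = 4.51e-08). Its 1682 copies are short, with a median length of 133 bp against 582 bp for RLTR17. Of these copies 1222 (72.7%) are intronic and 165 (9.81%) exonic, yet 75.5% of the counts fell in annotated exons and 69.5% in 3′ untranslated regions (3′ UTRs), where a read can come from the mRNA of the host gene.

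The remaining tested names did not pass the test in G4 against WT. RLTR9D2 had 59.9, 70.1 and 67.2 CPM in G4, 45.5, 36.0 and 40.9 CPM in G1, and 63.3, 58.4 and 53.2 CPM in WT, so that G1 was the low group. RLTR9C had 130, 114 and 118 CPM in G4, 143, 134 and 159 CPM in G1, and 84.0, 117 and 126 CPM in WT, and 83.8% of its counts came from 1 copy. RLTR17D_Mm had 127, 114 and 133 CPM in G4, 124, 156 and 121 CPM in G1, and 151, 107 and 123 CPM in WT. The G4 and WT libraries overlapped for all 3 of these names. The levels of RLTR9A3 were 50.8, 43.6 and 37.7 CPM in G4, 65.7, 55.6 and 45.3 CPM in G1, and 36.8, 40.7 and 56.1 CPM in WT. RLTR9F gave 30.8, 26.2 and 19.5 CPM in G4, 34.9, 27.3 and 33.7 CPM in G1, and 28.0, 36.3 and 29.5 CPM in WT. Log2 changes in G4 against WT were 0.18 for RLTR9D2, 0.14 for RLTR9C, -0.03 for RLTR17D_Mm and RLTR9A3 and -0.30 for RLTR9F, with adjusted p-values from 0.331 to 0.916 (edgeR). RLTR17C_Mm and RLTR9A3A averaged under 20 CPM and were not called, and RLTR9A3B, RLTR9A4 and RLTR9B2 had too few counts for a test.

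**Figure D1:**
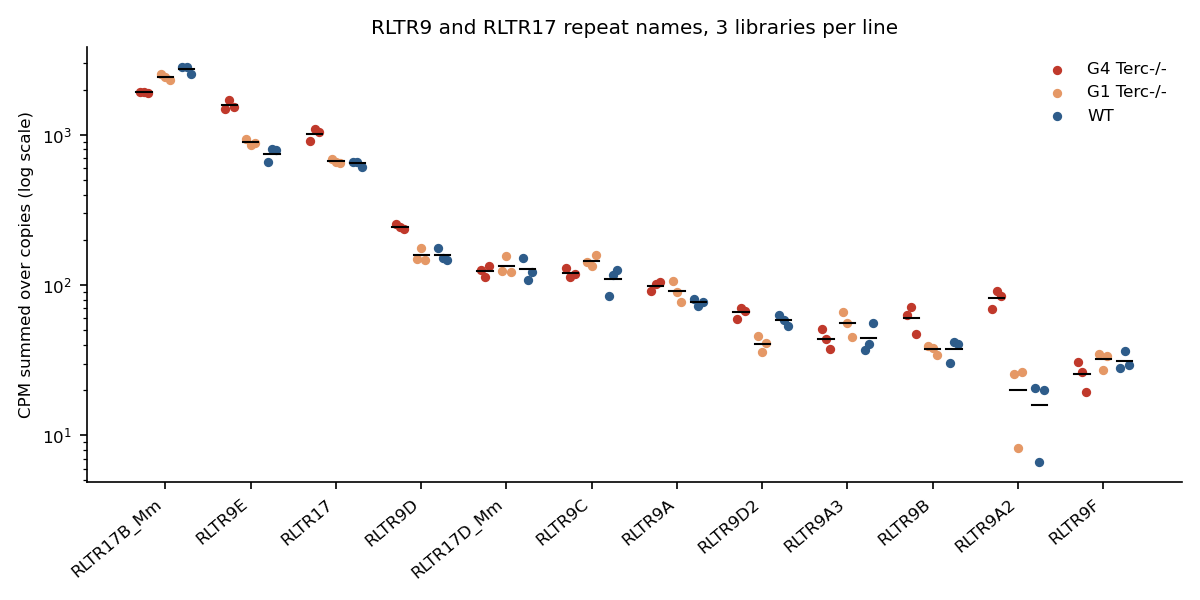
Level of each RLTR9 and RLTR17 name in every library, in CPM on a log axis, with G4, G1 and WT libraries as separate points and group means as bars, for names of at least 20 CPM. RLTR9E, RLTR17, RLTR9D and RLTR9B have all 3 G4 points above the WT points, RLTR17B_Mm has them below, and the G4 points of RLTR9A2 lie at 69.7 to 90.9 CPM against 6.61 to 20.8 CPM in WT.

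Against G1, 6 names (RLTR9E, RLTR17, RLTR9D, RLTR9D2, RLTR9B and RLTR9A2) were higher and RLTR17B_Mm was lower in G4, where 19.5% of all names were higher and 23% lower in G4 than in G1. Log2 changes were 0.81 ± 0.07 for RLTR9E (edgeR adjusted p = 8.23e-09), 0.61 ± 0.07 for RLTR17 (adjusted p = 4.79e-07) and -0.34 ± 0.05 for RLTR17B_Mm (adjusted p = 1.79e-05). RLTR9D2 was higher in G4 than in G1 by a log2 change of 0.69 ± 0.17 (edgeR adjusted p = 0.00269), but with copies of whole values the change was 0.21 and not called. Both contrasts use the G4 libraries and are not independent.

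Between G1 and WT the names differed little. RLTR9E was higher in G1 by a log2 change of 0.26 ± 0.07 (edgeR adjusted p = 0.0292) and RLTR17B_Mm was lower by -0.17 ± 0.05 (adjusted p = 0.0301), where 5.51% of all names were higher and 6.33% lower. The call of RLTR9E was lost without WT library 1 or any 1 of the G1 libraries, with log2 changes of 0.15 to 0.28. That of RLTR17B_Mm was lost without WT library 1 or 2 or G1 library 2 or 3. RLTR17 differed by 0.05 (adjusted p = 0.713) and RLTR9D by 0.01 (adjusted p = 0.975).

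The place of the copies was set against these changes. Of the 3108 copies, 1826 lie in introns, 252 in exons (with at least 0.5 of their length), 423 within 5 kb of a gene and 607 further away. Outside exons the summed level of all copies was 3130 ± 99.5 CPM in G4, 1987 ± 51.1 CPM in G1 and 1722 ± 161 CPM in WT (SD, n = 3 each), on the scale of the single-copy fit. In exons it was 2533 ± 61.4 CPM in G4, 2656 ± 91.1 CPM in G1 and 3041 ± 111 CPM in WT. The exonic sum followed RLTR17B_Mm, whose exonic copies had 1402 CPM in G4, 1789 CPM in G1 and 2146 CPM in WT. Exonic copies of all RLTR9 names were instead at 758 ± 56.0 CPM in G4, 578 ± 27.8 CPM in G1 and 570 ± 30.03 CPM in WT. Exonic copies of the name RLTR17 alone were at 352 ± 11.3 CPM in G4, 266 ± 22.0 CPM in G1 and 306 ± 15.7 CPM in WT. Both had all G4 libraries above all WT libraries. For RLTR17 the higher G4 sum lay in noncoding exons, with 151 CPM in G4 and 57.1 CPM in WT. Of these, the Platr27 copy alone had 130 CPM in G4 and 26.5 CPM in WT. The RLTR17 copies in 3′ UTRs were lower in G4, at 200 CPM against 249 CPM in WT. Copies of all names in noncoding exons summed to 700 ± 66.2 CPM in G4, 494 ± 36.3 CPM in G1 and 589 ± 16.7 CPM in WT. None of these sums was tested.

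The names were also fitted again from copies outside exons, a setting chosen after the data were seen, in which 19% of all names rose and 12% fell in G4 against WT. The log2 changes were then 1.27 for RLTR9E, 1.03 for RLTR17, 1.49 for RLTR9D and 1.19 for RLTR9B, all called, while RLTR17B_Mm was at 0.05 and not called. With only copies more than 5 kb from any gene, 6 names could be tested and 4 rose, namely RLTR9D by 2.62, RLTR9B by 1.87, RLTR9E by 1.62 and RLTR17 by 1.47 on the log2 scale. There 39.4% of all 388 names tested rose. For RLTR9D, the exonic copies summed to 79.1, 68.5 and 62.9 CPM in G4 and 111, 83.6 and 87.4 CPM in WT, and its intronic copies to 92.6, 75.5 and 78.6 CPM in G4 and 42.0, 43.3 and 37.7 CPM in WT. The intronic copies were higher in G4 without overlap of the libraries. The lower exonic sum came from 1 copy, in Zbtb6, whose values are given with the other leading copies. Without it the other 7 exonic copies had 14.3, 11.9 and 8.09 CPM in G4 and 15.1, 7.31 and 8.64 CPM in WT, and the libraries overlapped.

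**Figure D2:**
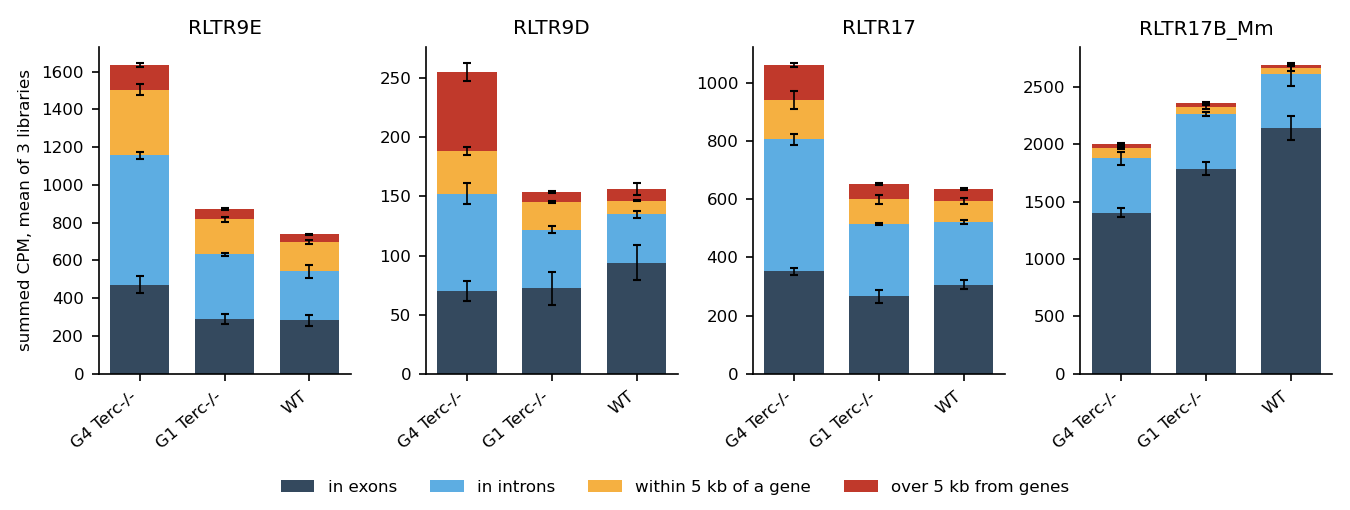
Mean level of RLTR9E, RLTR9D, RLTR17 and RLTR17B_Mm in G4, G1 and WT, in CPM from 0, stacked by the place of the copies (exons, introns, within 5 kb of a gene, further away), with the SD over 3 libraries. The intronic share of RLTR9E is 683 ± 16.6 CPM in G4 and 261 ± 34.7 CPM in WT, while the exonic share of RLTR17B_Mm is 1402 ± 39.3 CPM in G4 and 2146 ± 104 CPM in WT.

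Single copies were tested next, over all 13278 copies of the table with enough counts. Of the 103 tested RLTR9 and RLTR17 copies, 40 rose and 20 fell in G4 against WT, where 21.3% of all tested copies rose and 21.3% fell. Their median log2 change was 0.53, against -0.02 over all tested copies. The RLTR9 copies gave 27 rises and 2 falls among 46 tested, and the RLTR17 copies 13 rises and 18 falls among 57. The groups did not overlap between G4 and WT in 71 of the 103 copies. The share over all tested copies was not counted, so this number does not set RLTR9 and RLTR17 apart. Of 51 tested copies outside exons, 33 rose and 2 fell with a median log2 change of 1.11, where 1339 of all 6036 tested copies outside exons rose (22.2%). Of 43 tested copies in 3′ UTRs, 3 rose and 16 fell. Among all 7242 tested exonic copies 20.5% rose and 21.8% fell, while the share over all copies in 3′ UTRs was not counted. A copy that is high in G4 alone passes the filter only through G4, so these counts describe the tested copies and not all 3108.

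RLTR9E had 31 tested copies, the most after RLTR17B_Mm. The mean was higher in G4 than in WT for 30 of them, and 22 were called, with log2 changes from 0.63 to 7.58. Of the 31, 17 lie between 65 and 67 Mb of chromosome 13, and only 1 of these 17 had whole counts, so they share reads with other copies and are not independent. The copies of that region summed to 512, 502 and 474 CPM in G4, 315, 307 and 337 CPM in G1, and 232, 246 and 254 CPM in WT. Of the 17 tested there, 11 rose with a median log2 change of 0.91, and of the 14 tested elsewhere 11 rose with a median of 1.97. The rise was thus present in both sets of RLTR9E copies.

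Some counts are not whole, as happens when a read is divided between copies, and the sources do not describe how this was done. Among the 103 tested copies, 39 had such values, and 25 of these rose and 5 fell. Most of the 40 rises thus lay in copies with divided counts. The share over all tested copies with such values was not counted. The other 64 copies had whole values, and 15 rose and 15 fell (23.4% each) with a median log2 change of 0.04. Fitted on copies with whole values alone, 17 rose and 15 fell, where 20.5% of 8924 tested copies rose and 20.4% fell. The summed change of RLTR9E kept its size with whole values (log2 change 1.09) and that of RLTR17 was larger (1.07), while that of RLTR9D was smaller (0.40). Copies with whole values held only 20.2% of the counts of RLTR9E and 33.5% of those of RLTR17, against 87.4% for RLTR9D. Of the RLTR9E copies tested singly, 6 had whole values and 3 of these rose.

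**Figure D3:**
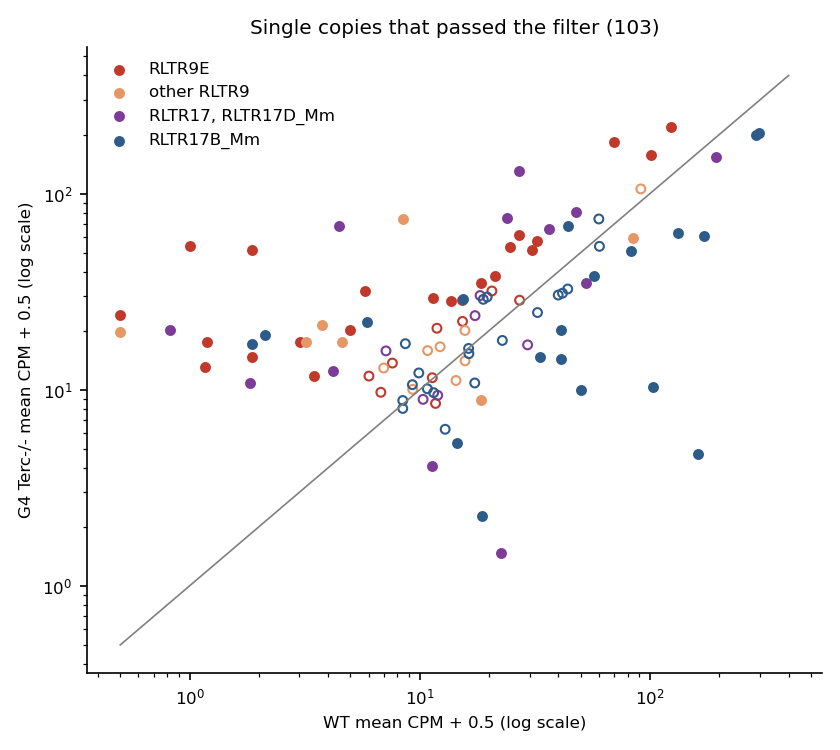
Mean level of the 103 tested RLTR9 and RLTR17 copies in G4 (vertical) against WT (horizontal), in CPM plus 0.5 on log axes, with called copies filled. The 40 rises lie above the diagonal, several of them where the WT level is near 0, and the 20 falls lie below it.

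The 8 largest rises among copies with no overlap between groups had at most 6.72 CPM in any WT library. An RLTR9E copy at chr12:104382571-104382984, in an intron of Serpina3m, a serine protease inhibitor gene, had 18.8, 30.9 and 20.9 CPM in G4, 0, 1.77 and 1.10 CPM in G1, and 0 in all WT libraries. With 74 counts in G4 and 0 in WT it was at least 24.3-fold higher in G4 (against a floor of 3 counts over the WT group, edgeR adjusted p = 9.5e-07). Another RLTR9E copy in an intron of the gene, chr12:104377179-104377596, had 50.4, 44.0 and 58.0 CPM in G4, 0, 1.77 and 1.10 CPM in G1, and 2.08, 1.04 and 0.960 CPM in WT, a log2 change of 5.11 ± 0.45 (edgeR adjusted p = 1.1e-09). These copies have the same strand and lie 4974 bp apart with pieces named MMERVK9C_I-int, ERVB2_1A-I_MM-int and ERVB4_1B-I_MM-int, all internal parts of ERVK proviruses, and RLTR13E, another LTR, between them. All 6 of the tested repeat copies within 10 kb rose as well.

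Away from genes, an RLTR9D copy at chr16:19035636-19036034 had 15.0, 22.9 and 19.6 CPM in G4 and 0 in every G1 and WT library. It was at least 20.1-fold higher in G4 than in WT by the same floor (61 counts against 0, edgeR adjusted p = 6.5e-06). An RLTR9E copy at chr12:72688802-72688976 had 20.9, 17.4 and 12.6 CPM in G4, 1.04, 1.77 and 1.10 CPM in G1, and 1.04, 1.04 and 0 CPM in WT. The G4 to WT ratio was 25.6 (exact 95% counting interval 6.75 to 217). Such ratios cover counting error only, and 1 or 2 counts in WT set their size.

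The other large rises came from both groups of LTRs. The RLTR9E copy at chr18:21061487-21061907 had 52.0, 58.5 and 50.8 CPM in G4, 1.04, 5.32 and 0.550 CPM in G1, and 0, 1.04 and 0.480 CPM in WT, and the ratio of G4 to WT was 166 (interval 29.3 to 6584, edgeR adjusted p = 2.1e-09). The RLTR17 copy at chr18:32114017-32114646, in the noncoding gene AC127347.2, had 26.4, 12.8 and 19.8 CPM in G4, 1.04, 3.54 and 6.60 CPM in G1, and 0, 0 and 0.960 CPM in WT, a ratio of 59.2 (interval 10.2 to 2376). Both copies thus had at most 1 count in each WT library. RLTR17 at C78283, shown above, had 63.8, 82.2 and 56.6 CPM in G4, 6.26, 7.97 and 2.20 CPM in G1, and 1.04, 4.18 and 6.72 CPM in WT, a log2 change of 4.02 ± 0.38 (edgeR adjusted p = 3.6e-09). The RLTR17B_Mm copy at chr9:118401825-118401977, near a gene but outside its exons, had 20.9, 16.4 and 12.6 CPM in G4, 1.04, 1.77 and 1.10 CPM in G1, and 3.12, 0 and 0.960 CPM in WT, a log2 change of 3.49 ± 0.68 (edgeR adjusted p = 0.00017). At all 8 copies the G1 libraries stayed at or below 7.97 CPM.

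The copy that leads RLTR9A2, at chr10:34230133-34230500, belongs to the same kind. It had 64.8, 82.2 and 74.6 CPM in G4, 14.6, 2.66 and 13.2 CPM in G1, and 5.21, 6.27 and 12.5 CPM in WT, and its log2 change was 3.18 ± 0.34 (edgeR adjusted p = 4e-08). Another pair of RLTR9E copies, in an intron of the syntrophin gene Sntg1, also brackets MMERVK9C_I-int, with a gap of 4955 bp. The copy at chr1:8936109-8936519 had 165, 206 and 179 CPM in G4, 110, 66.8 and 105 CPM in G1, and 55.6, 75.4 and 76.3 CPM in WT, and its log2 change was 1.41. The copy at chr1:8941475-8941894 had 66.96, 59.8 and 55.3 CPM in G4, 39.7, 43.3 and 34.6 CPM in G1, and 16.2, 24.3 and 38.8 CPM in WT, with a log2 change of 1.18. Here the WT copies were not silent, and G1 lay between G4 and WT in mean.

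The copies near each rise were then looked up. Of the 33 rises outside exons, 27 had a tested repeat copy within 10 kb that was of neither group, and 22 of these 27 (81.5%) had such a neighbour that rose. Among the 18 tested RLTR9 and RLTR17 copies outside exons that did not rise, this held for 4 of 12 (33.3%). For tested copies of all other names outside exons, with neighbours of another name, it held for 809 of 911 that rose (88.8%) and 638 of 3096 that did not (20.6%), so a rising neighbour was not particular to RLTR9 and RLTR17 rises. For 16 of the 33 rises a neighbour was named as an internal part of an LTR element of any kind. At some, such as the RLTR9E copy at chr13:66280061-66280463, this was ORR1B1-int and not an MMERVK9 part. Over all 40 rises, in exons or not, 8 had an MMERVK9 internal part as a neighbour. Some copies that did not rise also had such a neighbour, for example those at chr13:66165067-66165474 and chr17:36004261-36004384. Their share was not counted, so this is not shown to be particular to the rises. In these counts a transcript that starts in the LTR and one that runs through it cannot be told apart.

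The 20 falls were mostly RLTR17B_Mm fragments in exons, and 18 of them were exonic. An RLTR17B_Mm copy in a noncoding exon of Adamts9 (chr6:92847628-92847725), a secreted metalloprotease gene, had 0, 6.39 and 6.29 CPM in G4, 73.0, 64.7 and 70.4 CPM in G1, and 176, 158 and 150 CPM in WT. The 3 groups did not overlap, and the log2 changes were -5.13 ± 0.29 in G4 against WT (edgeR adjusted p = 1.4e-13), -1.22 ± 0.18 in G1 against WT (adjusted p = 5.7e-05) and -3.91 ± 0.32 in G4 against G1. The fragment in the 3′ UTR of Cxadr (chr16:78336547-78336685), which encodes a cell adhesion receptor, had 8.79, 10.05 and 10.8 CPM in G4, 59.5, 59.4 and 57.2 CPM in G1, and 105, 113 and 90.2 CPM in WT. Its log2 changes were -3.35 ± 0.22 in G4 against WT (edgeR adjusted p = 3e-12) and -0.80 ± 0.16 in G1 against WT (adjusted p = 0.0021). The fragment in Stard8 (chrX:99074479-99074616) had 11.0, 10.05 and 7.19 CPM in G4, 24.0, 24.8 and 11.0 CPM in G1, and 49.0, 54.3 and 45.1 CPM in WT, a log2 change of -2.39 ± 0.31 in G4 against WT (edgeR adjusted p = 7.7e-07).

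In these 3 exonic fragments G1 lay between G4 and WT in mean. The Cxadr fragment also lies within Btg3, and the sources do not say whether strand was used, so reads of the 2 genes cannot be told apart. The primitive endoderm markers had the same order of groups, with Gata4 at 12.8, 24.8 and 19.1 CPM in G4, 325, 327 and 377 CPM in G1, and 704, 768 and 763 CPM in WT, and the part of this in the falls was not tested. For 10 of the 18 exonic falls the host gene had another tested repeat copy, and for 9 of these such a copy fell as well. Among exonic copies that were not called, that in Polr3d also had a falling copy of its gene and that in Agfg1 did not. The share among copies that did not fall was not counted, so 9 of 10 is a description only.

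Further falls in 3′ UTRs were those of Irs4, Nrf1, Camsap1 and Bach1. The copy in Irs4 (chrX:141712093-141712226), an adaptor of insulin signalling, had 4.397, 0.913 and 0 CPM in G4, 8.35, 14.2 and 11.0 CPM in G1, and 15.6, 19.8 and 19.2 CPM in WT, a log2 change of -3.40 ± 0.60 (edgeR adjusted p = 5.7e-05). The copy in Nrf1 (chr6:30151926-30152077), a transcription factor of mitochondrial genes, had 14.3, 16.4 and 10.8 CPM in G4, 38.6, 47.8 and 35.2 CPM in G1, and 40.6, 31.3 and 49.9 CPM in WT, a log2 change of -1.55 ± 0.28 (edgeR adjusted p = 6.4e-05). The G1 and WT levels of Nrf1 overlapped, unlike those of the Adamts9 copy. Camsap1 (chr2:25927414-25927532), whose protein binds microtubule ends, had 5.50, 4.57 and 4.49 CPM in G4, 11.5, 12.4 and 5.50 CPM in G1, and 10.4, 12.5 and 19.2 CPM in WT, and its log2 change of -1.53 ± 0.48 (edgeR adjusted p = 0.012) was not called without WT library 3 (-1.28). Bach1, a haem-responsive repressor, had in its fragment at chr16:87731807-87731924 67.05, 59.4 and 53.9 CPM in G4, 96.0, 107 and 107 CPM in G1, and 187, 166 and 161 CPM in WT, a log2 change of -1.52 ± 0.14 (edgeR adjusted p = 3e-09).

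Only 2 of the 20 falls lay outside exons. An RLTR17D_Mm copy in an intron of the dynein gene Dnah14 (chr1:181619643-181620450) had 1.10, 0 and 1.80 CPM in G4, 19.8, 22.1 and 13.2 CPM in G1, and 27.1, 17.8 and 21.1 CPM in WT. With 3 counts in G4 and 65 in WT, the ratio of G4 to WT was 0.0455 (exact 95% counting interval 0.00915 to 0.139). An RLTR17 copy at chr6:38612012-38612598 had 4.397, 1.83 and 4.49 CPM in G4, 21.9, 10.6 and 15.4 CPM in G1, and 13.5, 9.40 and 9.60 CPM in WT, a log2 change of -1.58 ± 0.53 (edgeR adjusted p = 0.017) that was not called by the DESeq2 Wald test or without WT library 1 (-1.42) or G4 library 2 (-1.25). This copy and those of Adamts9 and Nrf1 lie on chromosome 6, part of which is described as deleted in the G4 line. Of all 581 tested copies on chromosome 6, 184 fell in G4 against WT (31.7%) with a median log2 change of -0.35. In G1 against WT that median was 0.08, and the Adamts9 copy was lower there as well (log2 change -1.22). The part of a lower dose of the chromosome in the falls of these copies was not tested.

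**Figure D4:**
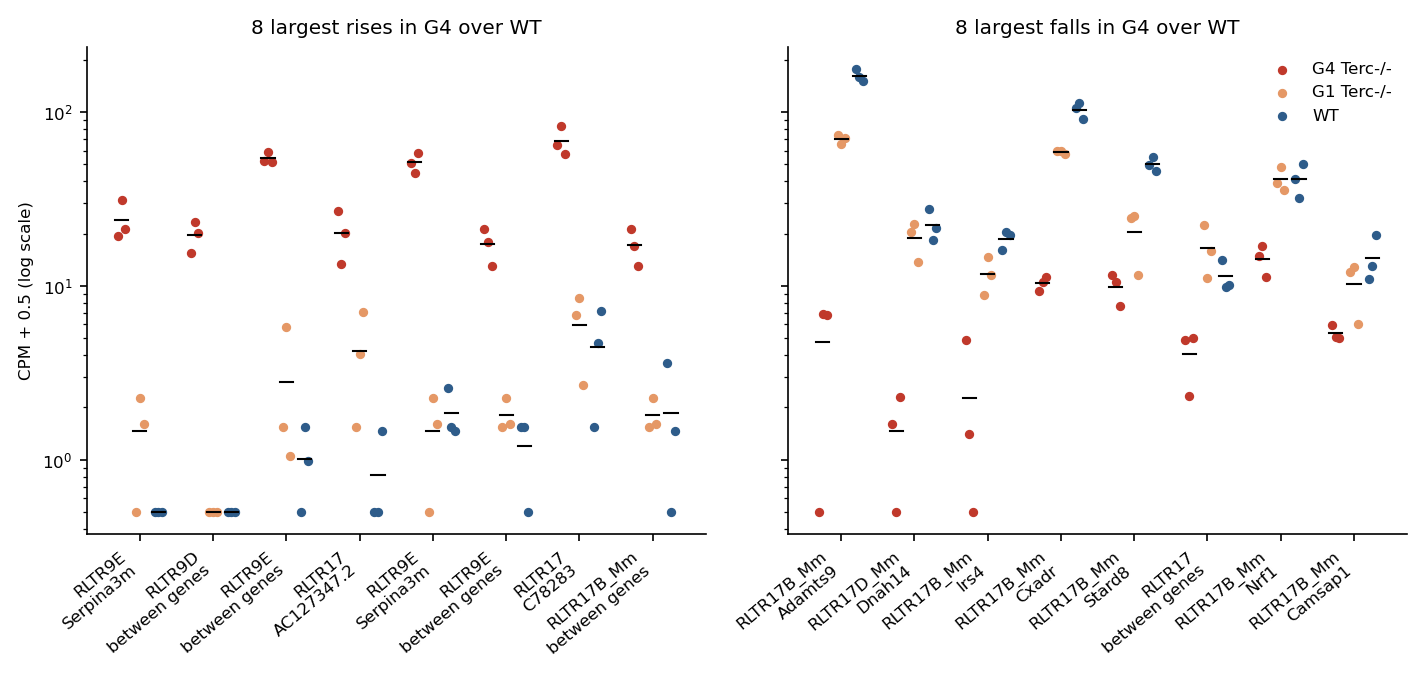
The 8 largest rises (left panel) and 8 largest falls (right panel) among RLTR9 and RLTR17 copies with no overlap between G4 and WT, in CPM plus 0.5 on a log axis, with every G4, G1 and WT library as a point and group means as bars. Most rises have G1 and WT points near 0 CPM, while the Adamts9, Cxadr and Stard8 falls have G1 points between the G4 and WT points.

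Only 6 of the 103 copies differed between G1 and WT, 1 higher and 5 lower, where 2.41% of all tested copies were higher and 4.36% lower in G1. The copy that was higher in G1 is an RLTR17B_Mm fragment in the 3′ UTR of Inhba (chr13:16028659-16028748), which encodes the subunit of activin A, a ligand of the TGF-beta family. The fragment also lies within the gene Gm48444, and with strand use not given, reads of both genes cannot be told apart. This fragment had 34.1, 33.8 and 44.0 CPM in G4, 127, 129 and 135 CPM in G1, and 46.9, 66.8 and 55.7 CPM in WT. The G1 libraries stood far above both others, with log2 changes of 1.21 ± 0.16 in G1 against WT (edgeR adjusted p = 1.6e-05) and -0.59 ± 0.19 in G4 against WT (adjusted p = 0.014). The lower copies were those of Adamts9, Cxadr, Stard8 and Bach1 and a fragment in Rab11fip1, an effector of endosome recycling (chr8:27141268-27141462). The Rab11fip1 fragment had 14.3, 12.8 and 15.3 CPM in G4, 7.30, 8.86 and 16.5 CPM in G1, and 41.7, 30.3 and 25.9 CPM in WT, a log2 change of -1.59 ± 0.34 in G1 against WT (edgeR adjusted p = 0.003), so both Terc-/- groups were below WT there. Between G4 and G1, 35 copies were higher and 14 lower in G4, where 19% of all tested copies were higher and 19.2% lower.

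For LTRs with an annotated RNA start the counts can be set beside named transcripts. Whether the reads came from these RNAs or from others that cross the copy cannot be told apart. An annotated transcript start lies in 34 of the 3108 copies, on the strand of the LTR in 25, of which 13 are RLTR17 and 6 RLTR9E copies. Of these copies, 8 could be tested, all on the strand of the LTR, and 6 rose and 1 fell in G4 against WT, where 21.3% of all tested copies rose and 21.3% fell. Of 67 tested LTR copies of other names with a start on their own strand, 29 rose (43.3%) and 11 fell (16.4%). RLTR17 at Platr27 (chr2:157596989-157597427) had 130, 144 and 118 CPM in G4, 25.2, 22.3 and 22.1 CPM in G1, and 28.0, 27.1 and 24.2 CPM in WT, a log2 change of 2.30 ± 0.18 (edgeR adjusted p = 1e-10). RLTR17 at Ptprtos (chr2:162390619-162391297), which runs opposite to the phosphatase gene Ptprt, had 56.5, 90.1 and 77.4 CPM in G4, 32.8, 31.0 and 22.0 CPM in G1, and 25.4, 19.8 and 25.0 CPM in WT, a log2 change of 1.68 ± 0.23 (edgeR adjusted p = 1.6e-06). RLTR9E at C330004P14Rik (chr10:15791513-15791921) had 26.4, 37.5 and 30.6 CPM in G4, 5.22, 8.86 and 6.60 CPM in G1, and 2.08, 4.18 and 9.60 CPM in WT, a log2 change of 2.53 ± 0.41 (edgeR adjusted p = 1.6e-05). In these copies and in C78283 all G4 libraries were above all G1 and WT libraries, while the G1 and WT libraries overlapped.

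RLTR9E at Platr10 (chr3:75655504-75655888) had a higher level in WT. It had 196, 254 and 206 CPM in G4, 128, 117 and 146 CPM in G1, and 112, 137 and 120 CPM in WT, a log2 change of 0.83 ± 0.13 (edgeR adjusted p = 1.6e-05). RLTR17 at Lncenc1 (chr13:97482566-97483206), a noncoding RNA of naive ESCs, had 77.6, 77.6 and 85.6 CPM in G4, 58.4, 51.0 and 59.4 CPM in G1, and 43.7, 54.3 and 42.9 CPM in WT, a log2 change of 0.77 ± 0.17 (edgeR adjusted p = 0.0007). Both are smaller changes than at Platr27. RLTR17 at Gm33301 (chr15:40162421-40163051) had 33.0, 26.5 and 29.7 CPM in G4, 32.3, 17.7 and 13.2 CPM in G1, and 17.7, 13.6 and 22.1 CPM in WT, and its log2 change of 0.72 ± 0.31 was not called (edgeR adjusted p = 0.066). The fall was RLTR9F at Gm16233 (chr3:144947514-144947950), with 11.5, 6.27 and 7.43 CPM in G4, 17.6, 12.4 and 18.7 CPM in G1, and 14.6, 26.1 and 13.2 CPM in WT, a log2 change of -1.14 ± 0.40 (edgeR adjusted p = 0.022). It was not called by the DESeq2 Wald test, nor without WT library 2 (-0.82) or G4 library 2 or 3 (-0.98 and -1.06).

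**Figure D5:**
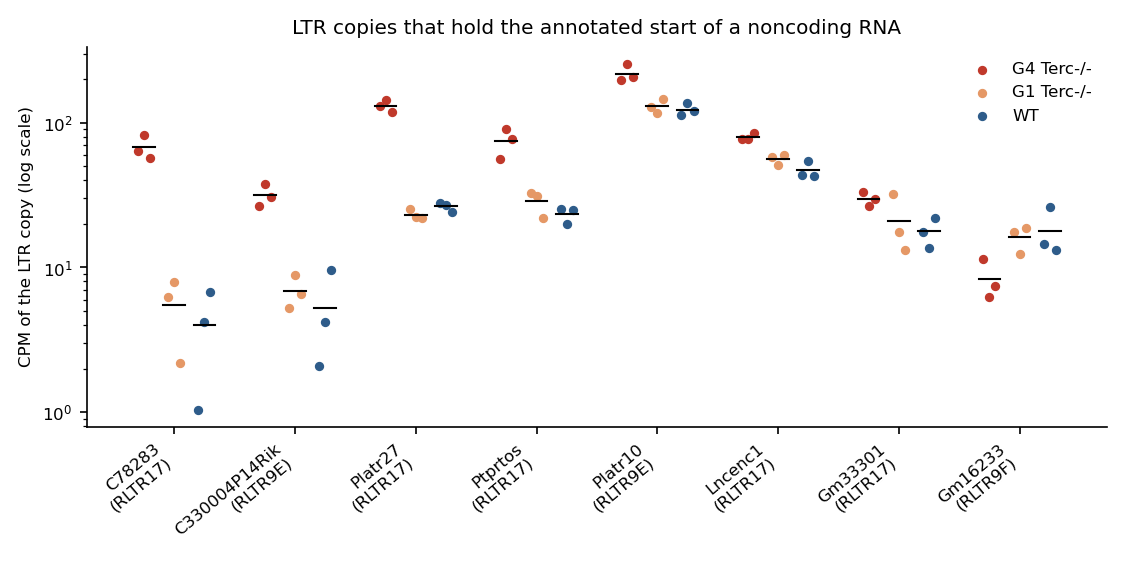
Level of the 8 tested LTR copies that hold an annotated start of a noncoding RNA, in CPM on a log axis, with each G4, G1 and WT library as a point and group means as bars. Platr27 lies at 118 to 144 CPM in G4 against 24.2 to 28.0 CPM in WT, and Gm16233 is lower in G4, at 6.27 to 11.5 CPM against 13.2 to 26.1 CPM in WT.

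Besides the leading copies already given, most copies with the highest count of their name were exonic. RLTR17 in the 3′ UTR of Zfp809 (chr9:22239630-22240297), a KRAB zinc finger protein known for silencing retroviruses in mouse ESCs, had 138, 150 and 170 CPM in G4, 177, 158 and 155 CPM in G1, and 182, 197 and 199 CPM in WT. Its log2 change of -0.33 ± 0.12 (edgeR adjusted p = 0.028) was not called by the DESeq2 Wald test or without WT library 2 or G4 library 1 or 2. RLTR17B_Mm in Pitpnb (chr5:111386631-111386814), a phosphatidylinositol transfer protein gene, had 204, 206 and 200 CPM in G4, 299, 231 and 234 CPM in G1, and 266, 316 and 306 CPM in WT, a log2 change of -0.54 ± 0.12 (edgeR adjusted p = 0.00056). A copy on the other strand overlaps it with almost the same counts, so the 2 are not separate measurements. RLTR9D in Zbtb6 (chr2:37427754-37428115), a zinc finger gene, had 64.8, 56.6 and 54.8 CPM in G4, 56.3, 81.5 and 57.2 CPM in G1, and 95.8, 76.2 and 78.7 CPM in WT. Its log2 change of -0.51 ± 0.18 (edgeR adjusted p = 0.023) ran against the rise of RLTR9D as a name, and the call was lost without WT library 1 or G4 library 2 or 3 and under the DESeq2 Wald test.

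RLTR9C at Pnp2 (chr14:50964461-50964868), a purine nucleoside phosphorylase gene, had 114, 99.6 and 102 CPM in G4, 114, 105 and 139 CPM in G1, and 75.0, 88.8 and 108 CPM in WT, and was not called (edgeR adjusted p = 0.31). The leading copies of RLTR9D2 in Hjurp, RLTR9B in Gtpbp6 and Plcxd1, RLTR9A3 in A930015D03Rik and RLTR9A in Tma16 were not called either, with log2 changes of 0.44, 0.35, 0.09 and -0.17 in G4 against WT.

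With a looser filter, 807 RLTR9 and RLTR17 copies could be tested, and 61 rose and 16 fell, where 1.89% of all 184217 copies tested rose and 1.58% fell. RLTR9E gave 27 rises among 110, RLTR17 13 rises and 1 fall among 117, RLTR9D 8 rises among 52, and RLTR17B_Mm 6 rises and 14 falls among 338. Other LTRs served as a comparison. All 532 tested LTR names had a median log2 change of 0.11 in G4 against WT, with 160 rises and 94 falls, against 0.50 for the 10 tested RLTR9 names and -0.04 for the 4 RLTR17 names. Of 15 further LTR names linked to pluripotency or trophoblast factors, 7 rose and 2 fell, among them MERVL-int (1.37) and MT2_Mm (1.30), parts of the retrovirus of the 2-cell embryo, and ERVB7_1-LTR_MM (-1.37). The internal parts MMERVK9C_I-int and MMERVK9E_I-int rose by 0.40 and 0.46 on the log2 scale.

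The size of the name changes depends on the scaling. With library totals in place of TMM, the median log2 change of all 853 names in G4 against WT moved to 0.14, with 286 rises and 136 falls, so that 67.8% of calls were rises against 49.6% with TMM. RLTR9E was then at 1.20, RLTR17 at 0.80 and RLTR17B_Mm at -0.37, each with the same direction and call as with TMM. In G4 against G1 the same change gave 72.0% rises against 45.9%.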

How the data were processed

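RNA of 9 ESC libraries, 3 each of G4 Terc-/-, G1 Terc-/- and WT, was sequenced from TruSeq RNA libraries, with strand use not given in the sources used here. The deposited table holds expected counts (an estimated count of reads per repeat copy on mm10), which the authors made with FastQC 0.11.9, STAR 2.5.3a and featureCounts per the labels. Of all copies, 55092 had a value that is not whole, although the study's methods speak of uniquely mapped reads for single copies. Normalized values were not used, columns named Control were taken as WT, and 0 columns of other samples were left out.

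Copies were placed against GENCODE M21. After rounding, filterByExpr and TMM scaling on the whole table, edgeR 4.0.16 (R 4.3.3) ran two-sided quasi-likelihood tests over all 9 libraries, for names and for copies, with Benjamini-Hochberg adjustment over all features tested. Calls were made under 0.05, and each SE was obtained by dividing a log2 change by the root of its F statistic. The fits were tested on simulated data. CPM of names and of copies carry separate TMM factors. Libraries of 1 group differed beyond sampling noise.

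The copies named are the 8 with the largest change in either direction when G4 is set against WT (4 in each other contrast), without overlap and with at least 5 counts on average, and the leading copy of each name of at least 20 CPM. Bach1, Sntg1 and the copies with RNA starts were added after their values were seen. The members and lists were chosen with earlier results of these data known. Alternatives were DESeq2 1.42.0, library totals, looser filters, a replicate block, other call rules, leaving out libraries and subsets of copies.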

Additional observations from a re-analysis of the deposited data

Results flagged for a closer look

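The RLTR17B_Mm fragment in the 3′ UTR of Inhba, which also lies within Gm48444, moved in opposite directions in the Terc-/- lines relative to WT. It was lower in all 3 G4 libraries and higher in all 3 G1 libraries than in any WT library, and the test of the difference between both effects, which is G4 against G1, gave a log2 change of -1.80 ± 0.17 (edgeR adjusted p = 6.8e-09).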

How the results depend on the processing

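Of 228 values of the 12 counts of called names and copies under other settings, 177 stayed within 1.5 times the value in the report and 51 did not. Among names called in the report or under the other setting, directions turned only for RLTR17B_Mm. Its log2 change went to 0.17 (G4 against WT) and 0.29 (G1 against WT) with copies over 5 kb from genes. With copies outside exons, added after seeing the data, it went to 0.054 and 0.089. Of 690 values for names, 652 kept their call status, 29 lost and 5 gained the call. Of 631 values for named copies 607 kept theirs, 22 lost and 2 gained the call. A change of sign was not counted where neither fit gave a call. RLTR9F, for example, went from -0.30 to 0.55 (log2, G4 against WT) with copies outside exons. For names (edgeR except where stated), a fold of at least 2 left 2 rises of 6 and 0 falls of 1 in G4 against WT, 0 and 0 in G1 against WT and 1 rise and 0 falls in G4 against G1. Copies over 5 kb from genes and copies outside exons gave 0 falling names in every contrast, the rule of the study (unadjusted p with a fold) 0 falls in G4 and G1 against WT, copies with whole values 0 calls in G1 against WT, copies over 5 kb from genes 0 rises there, and copies outside chromosome 6 gave 0 falls there and 2 in G4 against G1. For copies, G4 against WT gave 61 rises with the looser filter, 17 with whole values and 6 over 5 kb from genes (40 in the report), and falls numbered 0 over 5 kb from genes, 2 outside exons and 13 past a fold of 2 (20 in the report). G1 against WT gave 0 rises and 0 falls over 5 kb from genes and outside exons, 5 rises by the rule of the study and 3 falls past a fold of 2. G4 against G1 gave 15 rises with whole values and 5 over 5 kb from genes (35 in the report), and falls were 9 with the looser filter, past a fold of 2 and by the rule of the study, 0 over 5 kb from genes and 3 outside exons (14 in the report). The subsets hold fewer copies by construction, and the causes of the other shifts were not tested. Leaving out each library in turn gave 5 to 7 rising and 1 falling names in G4 against WT, 0 to 2 and 0 to 1 in G1 against WT, and 5 to 6 and 1 to 2 in G4 against G1. For copies it gave 36 to 52 rises and 15 to 22 falls, 1 to 2 and 5, and 32 to 39 and 10 to 14. The replicate block gave 5 rising and 1 falling names in G4 against WT, with RLTR9A no longer called, and 40 rises and 20 falls of copies. Same-numbered libraries did not deviate together (correlations of -0.0153 to 0.0208). No pairing by number was thus seen, though this check cannot exclude that same-numbered libraries were handled together. At this depth 3005 of 3108 single copies could not be tested.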
